A study of Mus musculus with 6 samples.

Results

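Antisense genes are transcription units on the strand opposite to another gene, and 221 of them were described here beside the protein-coding genes they overlap. They were chosen by 2 features of the deposited table: the biotype antisense, which the table spells antisense_RNA, and a mean of at least 50 normalised read counts in at least 1 group. That biotype was given to 1287 of the 22239 genes listed, and 221 of these reached the level. A protein-coding gene was set beside an antisense gene as its partner where both shared at least 1 base on opposite strands of GRCm38. This gave 247 pairs of 207 antisense genes with 239 coding partners, and 14 antisense genes had no partner in the table. RNA came from epithelial cells of mouse lung, sorted by reporter fluorescence from mice aged 8 weeks after cells bearing CD31 or CD45 had been depleted. BASC (bronchioalveolar stem cells) carried both reporters, CCSP-mCherry of the club cell secretory protein and SPC-YFP of surfactant protein C. AT2 (alveolar type 2) cells carried SPC-YFP, Club cells carried CCSP-mCherry, and each group had 2 samples. The labels do not say whether these came from separate mice, so p-values measure the spread between these samples, which may be technical.

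An antisense RNA can act on the gene it overlaps, by RNA pairing, by transcription through a promoter or by recruiting chromatin modifiers, and others have no known function. Kcnq1ot1 and Airn are the textbook cases in the mouse: each is transcribed from 1 parental chromosome and silences neighbouring imprinted genes there, and Tsix represses Xist on the active X chromosome. Club cells line the bronchioles and metabolise foreign compounds, AT2 cells make surfactant, and BASC sit where the airway meets the alveoli and express genes of both.

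The libraries followed their labels in the reporter genes. Sftpc had 290809 and 307458 normalised read counts in BASC, 301267 and 373742 in AT2 cells, and 240 and 224 in Club cells. Scgb1a1, which encodes the club cell secretory protein, had 43993 and 58791 in BASC, 413 and 302 in AT2 cells, and 751642 and 760675 in Club cells. Column totals lay between 12733137 and 14090464, and the spacing of low values gave an estimated 10118863 to 18193721 reads per library. One read was worth between 0.764 and 1.34 units, so 3 reads, the limit used for a gene listed at 0, came to between 2.29 and 4.02 units. Summed alveolar type 1 cell markers (8 of 8 in the table, Hopx among them) ranged from 14143 to 14347 in BASC, 12796 to 15452 in AT2 cells and 7522 to 8369 in Club cells. Summed ciliated cell markers (8 of 8 in the table) ranged from 2778 to 3067 in BASC, 2442 to 2847 in AT2 cells and 6643 to 6837 in Club cells. Summed endothelial markers (5 of 8 in the table, led by Kdr) ranged from 571 to 736, from 34 to 61 and from 5582 to 5949 in the same order of groups, and summed immune markers (5 of 10, led by Lyz1) from 3879 to 4311, from 10308 to 17348 and from 168 to 228. Mesenchymal markers (6 of 8) summed to 13 to 39 in BASC, 13 to 240 in AT2 cells and 55 to 104 in Club cells, and basal cell markers (2 of 4) to at most 43. The part of these other cell types in the differences below was not tested. In sorted bulk samples, fewer cells of a type and less RNA per cell cannot be told apart.

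The antisense genes chosen were a small share of the RNA. The 221 together held 0.183% and 0.212% of the column totals in BASC, 0.178% and 0.152% in AT2 cells, and 0.223% and 0.210% in Club cells. The members summed to 24858 and 28614 normalised read counts in BASC, 24784 and 21378 in AT2 cells, and 28338 and 27685 in Club cells. Without Kcnq1ot1 and Gm15564 these sums were 17288 and 19305, 19866 and 16474, and 19473 and 19122 in the same order. The highest group mean of the 221 had a median of 79, and 72 reached 100, 30 reached 200, 8 reached 500 and 5 reached 1000. The highest group was BASC for 63, AT2 for 84 and Club for 74 of them. The level of 50 was reached in 1 group by 112, in 2 groups by 60 and in all 3 groups by 49. Of the 112, it was BASC for 27, AT2 cells for 45 and Club cells for 40, so these had to differ between groups by the way they were chosen. The members nearest the level were Gm16279 (highest mean 50.5), Gm35715 (50) and Notumos (50), and just outside it were 4933431G14Rik, 6230400D17Rik and AC125020.1 (49.5 each).

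An antisense gene inside the coding gene was the most frequent position. In 132 of 247 pairs (53.4%) the antisense gene was wholly within the span of its partner, in 63 (25.5%) the genes overlapped head to head at their starts, in 44 (17.8%) tail to tail at their ends, and in 8 (3.24%) the coding gene was inside the antisense gene. One member, Gm29994, lay inside 20 gamma protocadherin genes, which share their last exons and each start at an exon of their own. Without it the antisense gene was inside in 112 of 227 pairs (49.3%). Another 7 partners were shared by more than 1 member. By GENCODE M21, a median of 8.3% of a member's exon bases fell in exons of genes on the other strand, 72 members had no such base, and 66 shared no exon base with any partner. Members had a median of 2133 exon bases and partners 5845. The libraries were made with a stranded kit, but the strand setting of the counting is not given in the sources used here. Without it, reads of an antisense gene and its partner in shared exons cannot be told apart. The same holds for unspliced partner reads where antisense exons lie in an intron of the partner. Where a GENCODE antisense gene of up to 1000 exon bases, with no overlap on its own strand, had more than 90% of them in exons on the other strand, 7 of 103 (6.80%) had a row in the table. The share was 298 of 758 (39.3%) where no base did, and 270 of 692 (39.0%) in between.

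Per 1000 exon bases, antisense genes were usually below their partners. The antisense level was a median of 25.2% of the partner's level in BASC, 24.8% in AT2 cells and 25.3% in Club cells, on the scale of group means per 1000 exon bases and over the 245, 242 and 244 pairs with a partner above 0. It was above the partner's in 56, 58 and 53 of the 247 pairs in the same order of groups. Members were chosen by a level that partners did not have to reach, so these percentages are not those of all antisense genes.

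Kcnq1ot1 (chr7:143212155-143296549, minus strand), which lies inside the potassium channel gene Kcnq1 and silences imprinted genes of that domain, had the highest values of all members. It had 4520 and 5735 normalised read counts in BASC, 3084 and 2665 in AT2 cells, and 7525 and 6725 in Club cells. No 2 groups overlapped, Club cells being highest and AT2 cells lowest. Its log2 fold change of AT2 against Club cells was -1.31 ± 0.15 (SE, 2 samples per group; limma on log2(value + 1), Benjamini-Hochberg adjusted p = 0.00131), and those of BASC against AT2 cells (0.83, adjusted p = 0.0794) and of BASC against Club cells (-0.48, adjusted p = 0.0937) did not pass. Kcnq1 itself had 644 and 312 in BASC, 433 and 362 in AT2 cells, and 558 and 652 in Club cells and passed in no comparison. Gm15564 (chr16:35966753-35983230, minus strand), tail to tail with the ADP-ribosyltransferase gene Parp9, had 3050 and 3574 in BASC, 1834 and 2239 in AT2 cells, and 1340 and 1838 in Club cells. It was higher in BASC than in Club cells by 1.07 ± 0.19 on the log2 scale (adjusted p = 0.0143). Parp9 did not pass (348 and 457 in BASC, 320 and 340 in the Club samples, adjusted p = 0.676). The ratio of Gm15564 to Parp9, tested by limma as given below, did not pass either (adjusted p = 0.82).

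**Figure D1:**
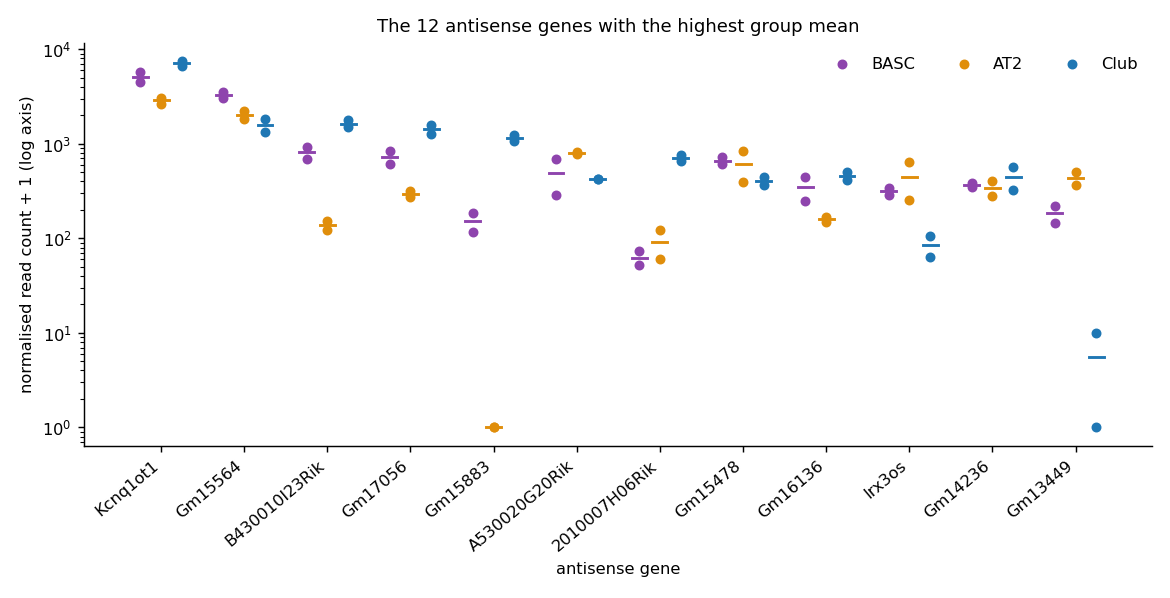
Normalised read counts plus 1 (log axis) of the 12 antisense genes with the highest group mean; each point is 1 sample, 2 per group, and each bar is the group mean. Kcnq1ot1 and Gm15564 stood above 1000 in every sample, Gm15883 was at 0 in both AT2 samples, and Gm13449 had 0 and 9 in the Club samples.

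Among the other leading members, Gm17056 and Gm16136 were lower in AT2 than in Club cells, and 3 had no passing difference. Gm17056, head to head with the membrane protein gene Lsmem1, had 608 and 840 in BASC, 313 and 272 in AT2 cells, and 1269 and 1600 in Club cells. It was lower than in Club cells by log2 -0.99 in BASC (adjusted p = 0.0366) and by -2.28 in AT2 cells (adjusted p = 0.000726). Lsmem1 passed in AT2 against Club cells only (log2 -2.23, adjusted p = 0.0293). Gm16136, head to head with Grhl2, a grainyhead transcription factor of epithelia, had 249 and 445 in BASC, 169 and 149 in AT2 cells, and 497 and 410 in Club cells, while Grhl2 itself stayed between 1537 and 2052 in all 6. Gm16136 was lower in AT2 than in Club cells (log2 -1.5, adjusted p = 0.0232) and Grhl2 did not pass (log2 -0.28, adjusted p = 0.204). The ratio of Gm16136 to Grhl2 did not pass by limma either (adjusted p = 0.59). Gm15478, inside the phospholipid flippase gene Atp8a1, passed in no comparison, although Atp8a1 was higher than in Club cells in BASC (log2 1.83, adjusted p = 0.000186) and in AT2 cells (log2 1.63, adjusted p = 0.000186). Gm15478 had 606 and 722 in BASC, 834 and 395 in AT2 cells, and 369 and 444 in Club cells, so that AT2 cells overlapped both other groups. The ratio of Gm15478 to Atp8a1 did not pass by limma in BASC (adjusted p = 0.82) or AT2 cells (adjusted p = 0.59) against Club cells. A530020G20Rik, beside the choline transporter-like gene Slc44a3, and Gm14236, beside Ripor3, also passed in none.

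BASC against AT2 cells gave few differences, all of them higher in BASC. Of 220 members tested, 3 (1.36%) were higher and 0 lower in BASC, against 0.553% higher and 0.079% lower among all 17721 genes tested. At an unadjusted p under 0.05, 13 members were higher and 9 lower. Nothing is read from these shares and counts, since the level that chose the members used the same samples. The share of all genes at the unadjusted level was not counted. The 3 were Gm15883, B430010I23Rik and 4930422M22Rik, and the partner of each was higher in BASC too. None of the 3 passed when either BASC sample was left out, and 2 of them passed without any 1 of the other 4 samples. Among the 234 partners tested, 4 (1.71%) were higher and 0 lower, against 0.696% and 0.105% of all coding genes. These were Cyp2f2, Cep70, Mtus1 and Ccdc88c, and of these 1 still passed without either BASC sample and 2 without either AT2 sample.

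Gm15883 (chr7:27124481-27130674, minus strand) lies inside Cyp2f2, a cytochrome P450 that marks club cells. It had 186 and 117 normalised read counts in BASC, 0 and 0 in AT2 cells, and 1226 and 1063 in Club cells, and Cyp2f2 had 11815 and 14384, 173 and 186, and 98182 and 101859 in the same order. No groups overlapped for either gene. Set against the limit of 3 reads per library, Gm15883 was at least 55.1-fold higher in BASC than in AT2 cells (log2 fold change 7.21 ± 0.64, adjusted p = 0.00592), and for Cyp2f2 the fold was 73.0 (6.18 ± 0.12, adjusted p = 3.82e-06). The BASC mean was 13.2% of the Club mean for Gm15883 and 13.1% for Cyp2f2. Per 1000 exon bases Gm15883 came to between 0.97% and 1.89% of Cyp2f2 in the BASC and Club libraries, and 274 of its 1690 exon bases lie in Cyp2f2 exons.

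B430010I23Rik (chr8:41017468-41024216, plus strand) lies inside Mtus1, which encodes a microtubule-associated protein. It had 694 and 926 in BASC, 123 and 151 in AT2 cells, and 1777 and 1490 in Club cells, with no overlap between groups. Mtus1 kept the same order, with 4069 and 3973 in BASC, 1632 and 1405 in AT2 cells, and 12810 and 11650 in Club cells. In BASC against AT2 cells the antisense gene was higher 5.91-fold (log2 2.55 ± 0.23, adjusted p = 0.00592) and Mtus1 2.65-fold (1.41 ± 0.12, adjusted p = 0.00518). 4930422M22Rik, tail to tail with the centrosomal protein gene Cep70, had 67 and 56 in BASC, 0 and 0 in AT2 cells, and 195 and 134 in Club cells. It was at least 22.4-fold higher in BASC than in AT2 cells (adjusted p = 0.0433). Cep70 had 798 and 990 in BASC, 263 and 292 in AT2 cells, and 2484 and 3406 in Club cells, a 3.22-fold difference of BASC from AT2 cells (adjusted p = 0.0233). The fourth partner, Ccdc88c, which encodes a Dishevelled-binding protein, was 0.86 higher on the log2 scale (adjusted p = 0.0248), and its 2 antisense members, A630072L19Rik (log2 1.55) and AC126262.2 (log2 -0.77), did not pass.

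BASC differed from Club cells in more members, and in more of all genes tested. Of 220 tested, 17 (7.73%) were higher in BASC, against 5.77% of all genes, and 12 (5.45%) lower, against 5.42%. The median log2 fold change was 0.08 over members and -0.10 over all genes. Among the 234 partners 42 (17.9%) were higher, against 6.92% of coding genes, and 18 (7.69%) lower, against 6.37%. Members were chosen by level in the same samples, so nothing is read from their shares. Partners had no level of their own to reach, but their partners in the antisense set had, so the shares of partners are given as a description. The count of 29 members was 5 and 6 without BASC sample 1 and 2, 19 without AT2 sample 1, and 8 without either Club sample.

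Several members higher in BASC than in Club cells had partners that were higher too. Gm13449 (chr2:34993973-35013446, plus strand) lies inside Hc, the gene of complement component C5. It had 220 and 145 normalised read counts in BASC, 501 and 363 in AT2 cells, and 0 and 9 in Club cells, and Hc had 74011 and 74648, 86014 and 82856, and 396 and 445. Gm13449 was higher in BASC than in Club cells by log2 5.83 ± 1.07 (adjusted p = 0.0153) and Hc by 7.46 ± 0.10 (adjusted p = 6.16e-08). Gm12473 (chr4:43631539-43641533, minus strand) overlaps the start of Npr2, the receptor of C-type natriuretic peptide. It had 267 and 123 in BASC, 295 and 182 in AT2 cells, and 7 and 3 in Club cells, a log2 fold change of 5.01 ± 0.72 in BASC against Club cells (adjusted p = 0.00565). Npr2 had 1604 and 1156 in BASC, 1921 and 1440 in AT2 cells, and 81 and 95 in Club cells (log2 3.94 ± 0.25, adjusted p = 0.000116). BASC and AT2 cells overlapped for Gm12473 and for Npr2, and Club cells stood apart.

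9230117E06Rik, inside the diacylglycerol kinase gene Dgkg, had 29 and 50 in BASC, 124 and 108 in AT2 cells, and 0 and 0 in Club cells, where Dgkg was also listed at 0 in both samples. Gm15396, tail to tail with Napsa, whose aspartic protease processes surfactant protein B, had 25 and 17 in BASC, 83 and 60 in AT2 cells, and 0 and 0 in Club cells. The antisense changes of BASC against Club cells were at least 14.1-fold for 9230117E06Rik and at least 7.52-fold for Gm15396, and Napsa was 163-fold higher. Gm45606 beside the amino acid transporter gene Slc43a2 (log2 4.70, adjusted p = 0.0224), Gm13561 beside the dipeptidyl peptidase gene Dpp4 (3.33, adjusted p = 0.0483) and Irx3os beside the Iroquois homeobox gene Irx3 (1.94, adjusted p = 0.0490) rose in BASC with their partners. Gm20692 inside Hdhd5, Notumos beside Notum, whose product inactivates Wnt proteins, and Erich2os beside Erich2 rose without a passing change of the partner. The ratios of these 3 to their partners did not pass by limma either (adjusted p = 0.752, 0.878 and 0.52). Erich2 itself had a log2 fold change of -1.87 (adjusted p = 0.442), and its antisense gene had 24 and 91 in BASC, 36 and 10 in AT2 cells, and 1 and 0 in Club cells.

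Of the 12 members lower in BASC than in Club cells, 7 had at most 2 normalised read counts in each AT2 sample, namely Gm15883, Grip1os1, Grip1os2, AC158686.2, D430036J16Rik, Sox5os1 and Grin1os. With such AT2 values, all 7 had to reach the level for members in another group. Nothing is therefore read from this count, and none is given over all genes. Grip1os1, Grip1os2 and AC158686.2 all lie inside Grip1, a scaffold gene of glutamate receptors, and share it as partner. Grip1os1 had 0 in each BASC and AT2 sample and 90 and 56 in Club cells, at least 21.6-fold lower in BASC than in Club cells (adjusted p = 0.0113). Grip1 had 54 and 4 in BASC, 2 and 0 in AT2 cells, and 535 and 466 in Club cells (adjusted p = 0.0574 for BASC against Club cells). D430036J16Rik, head to head with the serotonin receptor gene Htr1b, had 0 in each BASC and AT2 sample and 83 and 54 in Club cells, and Htr1b had 0 and 8 in BASC, 0 and 0 in AT2 cells, and 174 and 248 in Club cells. Both were lower in BASC, with log2 fold changes against Club cells of -6.09 (adjusted p = 0.0117) and -6.12 (adjusted p = 0.0283). 2010007H06Rik (chr9:51278513-51284210, plus strand), whose annotated start lies 56 bases from that of Colca2, had 51 and 72 in BASC, 123 and 59 in AT2 cells, and 653 and 767 in Club cells. It was 11.5-fold lower in BASC than in Club cells (adjusted p = 0.00387). Colca2 did not pass (70 and 149 in BASC, 385 and 289 in the Club samples, adjusted p = 0.119). The ratio of 2010007H06Rik to Colca2 did not pass by limma either (adjusted p = 0.515).

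Egfros departed from this order. It lies inside Egfr, the receptor of epidermal growth factor, and had 0 and 0 in BASC, 45 and 81 in AT2 cells, and 51 and 24 in Club cells. It was lower in BASC than in Club cells (at least 11.1-fold, adjusted p = 0.0219), and the difference from AT2 cells did not pass (adjusted p = 0.0723). Egfr had 87 and 71 in BASC, 166 and 249 in AT2 cells, and 195 and 102 in Club cells and passed in neither comparison. The values of Egfr were lowest in BASC as well.

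**Figure D2:**
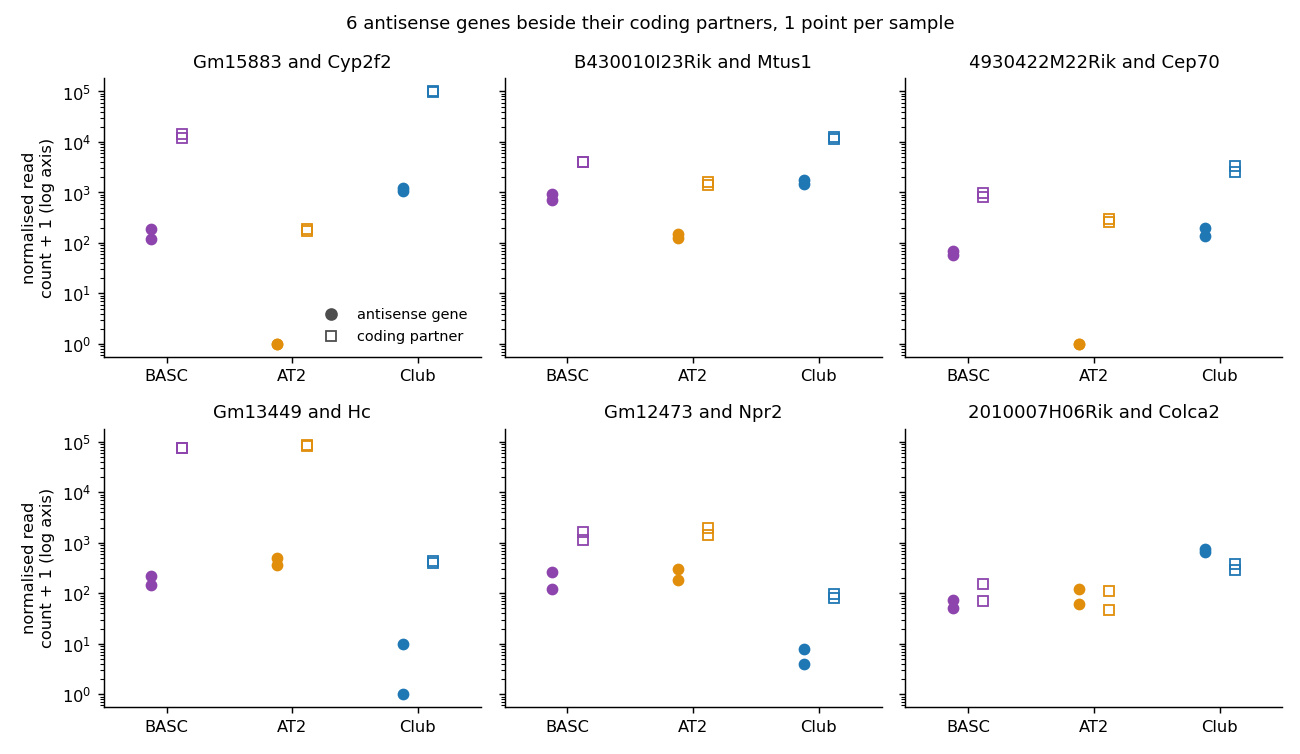
Normalised read counts plus 1 (log axis) of 6 antisense genes (filled circles) and their coding partners (open squares), 1 point per sample and 2 per group. In the upper row BASC lay between AT2 and Club cells for both genes of each pair, with AT2 cells lowest, and in the lower row Gm13449 with Hc and Gm12473 with Npr2 were low in Club cells, while 2010007H06Rik with Colca2 was high there.

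Upstream sequences of 4 of these coding genes are shown because they stand for both positions described above, an antisense gene inside the coding gene (Cyp2f2, Hc) and one that covers the coding start (Npr2, Colca2). Each is the 250 bases before the RefSeq start in GRCm38.p6, read 5′ to 3′ on the strand of the coding gene, with capitals marking CG dinucleotides. The windows are chr7:27119705-27119954 (plus) for Cyp2f2, chr2:35061413-35061662 (minus) for Hc, chr4:43631685-43631934 (plus) for Npr2 and chr9:51278555-51278804 (minus) for Colca2.
Cyp2f2: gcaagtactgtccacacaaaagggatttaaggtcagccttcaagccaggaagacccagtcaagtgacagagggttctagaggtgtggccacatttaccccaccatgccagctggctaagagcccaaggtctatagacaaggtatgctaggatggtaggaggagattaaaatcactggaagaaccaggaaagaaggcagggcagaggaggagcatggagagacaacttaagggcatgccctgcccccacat
Hc: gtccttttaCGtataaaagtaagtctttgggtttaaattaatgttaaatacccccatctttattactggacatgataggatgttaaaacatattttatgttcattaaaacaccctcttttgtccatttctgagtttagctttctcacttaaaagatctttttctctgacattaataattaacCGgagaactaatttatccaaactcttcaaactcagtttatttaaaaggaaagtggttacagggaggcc
Npr2: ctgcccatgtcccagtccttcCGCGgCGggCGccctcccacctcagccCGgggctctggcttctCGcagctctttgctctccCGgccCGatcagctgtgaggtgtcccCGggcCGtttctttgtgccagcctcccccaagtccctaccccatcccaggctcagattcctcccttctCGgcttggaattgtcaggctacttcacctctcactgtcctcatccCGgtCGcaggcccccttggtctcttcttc
Colca2: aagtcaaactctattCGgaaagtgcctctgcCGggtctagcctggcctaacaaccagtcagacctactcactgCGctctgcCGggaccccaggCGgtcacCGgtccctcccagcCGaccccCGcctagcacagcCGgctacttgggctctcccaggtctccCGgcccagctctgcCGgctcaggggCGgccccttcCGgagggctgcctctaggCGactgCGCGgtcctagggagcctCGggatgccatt

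Cyp2f2 had 0 and Hc 2 CG dinucleotides in this window, Npr2 had 13 and Colca2 17, beside a median of 6 over the 32851 windows of the RefSeq table. Windows with no CG made up 7.87% of that table, and those with at least 17 made up 23.5%. Of the 239 partners 175 matched the table by symbol and had a median of 17 CG, while 80 of the members with partners matched by symbol, chromosome and strand and had a median of 5. For pairs with the antisense gene inside the coding span the medians were 3 over 38 antisense and 18 over 84 coding windows, and for head to head pairs they were 6.5 over 28 and 13 over 50. The counts of Cyp2f2 and Hc thus lay below the coding median of their position and are not typical of it.

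AT2 against Club cells gave the most differences among members, as it did among all genes tested. Of 220 tested, 22 (10%) were higher in AT2 cells, against 8.42% of all genes, and 18 (8.18%) lower, against 9.71%. Of the 234 partners 54 (23.1%) were higher, against 9.95% of coding genes, and 36 (15.4%) lower, against 11.3%. Members were chosen by level in these samples and partners through them, so nothing is read from these shares. The median log2 fold change was 0.34 over members, 0.14 over partners and -0.10 over all genes. The count of 40 members was 18 and 21 without AT2 sample 1 and 2, and 17 and 22 without Club sample 1 and 2.

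The AT2 and Club changes repeated the pairs above in a wider range. Gm13449 was higher in AT2 cells by log2 7.08 ± 1.07 (adjusted p = 0.00433) and Hc by 7.65 ± 0.10 (adjusted p = 5.17e-08). Gm15883 was lower (log2 -10.16 ± 0.64, at least 416-fold, adjusted p = 7.48e-05) and Cyp2f2 557-fold lower. The next members passed in AT2 but not in BASC against Club cells. 1700001D01Rik inside Sh3rf1, which encodes a ubiquitin ligase scaffold, had 141 and 194 in AT2 cells against 10 and 0 in Club cells (log2 5.65, adjusted p = 0.0231), with 32 and 17 in BASC, and Sh3rf1 was higher by 2.10 (adjusted p = 0.000283). 9530026P05Rik beside the secreted metalloprotease gene Adamts9 had 437 and 288 in AT2 cells against 70 and 93 in Club cells (log2 2.12, adjusted p = 0.0181), and Adamts9 was higher by 3.84 (adjusted p = 0.00154). Plxna4os2, inside the semaphorin receptor gene Plxna4, had 260 and 144 in AT2 cells against 2 and 31 in Club cells (log2 4.31, adjusted p = 0.0463), and Plxna4 was higher by 3.65 (adjusted p = 2.21e-05).

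Of the members lower in AT2 than in Club cells, 10 had 0 in both AT2 samples and a partner that was lower as well, with 8 partners among them. Gm15883, 4930422M22Rik, Grip1os1, Grip1os2, AC158686.2, D430036J16Rik and Sox5os1 were among these, beside the next 3. Having 0 in AT2 cells, all 10 had to reach the level of 50 in another group, so nothing is read from this count. Gm19950, head to head with Acsm1, an acyl-CoA synthetase gene of medium-chain fatty acids, had 0 and 0 in AT2 cells against 106 and 62 in Club cells (adjusted p = 0.0237). Acsm1 had 0 and 0 in AT2 cells against 1566 and 1375 in Club cells. Gm20560, tail to tail with the axonemal dynein gene Dnah6, had 0 and 0 in AT2 cells against 58 and 116 in Club cells (adjusted p = 0.0153). Dnah6 had 68 and 7 in AT2 cells against 2566 and 2369 in Club cells (adjusted p = 0.00545). Summed ciliated markers were also higher in Club cells, as given above, and their part in this pair was not tested. AC154681.1, inside the thyroid hormone receptor gene Thrb, had 0 and 0 in AT2 cells against 47 and 61 in Club cells, and Thrb was lower too (log2 -1.8, adjusted p = 0.00431). Anxa11os, inside the annexin gene Anxa11, was lower in AT2 cells (0 and 2 against 28 and 28, adjusted p = 0.0388) but highest in BASC, with 91 and 50, where the difference from AT2 cells did not pass (adjusted p = 0.103).

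Where AT2 and Club cells differed, the BASC mean was compared with both. Of the 40 members called between AT2 and Club cells, 34 (85.0%) had a BASC mean between both group means, 3 above both and 3 below both. For the 90 partners called there, 76 (84.4%) lay between, 13 above and 1 below. On the log2 scale BASC was nearer to AT2 than to Club cells for 31 of the 40 members (77.5%) and for 79 of the 90 partners (87.8%). Over all 3212 genes called in that comparison 86.4% lay between and 76.9% were nearer to AT2 cells, and over the 2847 coding genes among them 86.3% and 77.1%. The genes were picked for differing between AT2 and Club cells, so these shares are a description and nothing is read from them.

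The fitted log2 fold changes of antisense genes and partners had the same sign in most pairs, although in most pairs at least 1 of the genes did not pass. In BASC against AT2 cells the sign was shared in 152 of 241 pairs (63.1%), in BASC against Club cells in 171 (71.0%) and in AT2 against Club cells in 191 (79.3%). Pearson's r of antisense and coding log2 fold changes across these pairs was 0.36, 0.70 and 0.78. It is a description over pairs that share the 6 libraries, and 20 of them share Gm29994. Without Gm29994 the same sign was found in 61.1%, 69.7% and 77.4% of 221 pairs. Both genes passed in the same direction in 3 pairs (BASC against AT2 cells), in 11 higher and 3 lower pairs (BASC against Club cells), and in 18 higher and 15 lower pairs (AT2 against Club cells, where the 15 have 13 coding genes). In none of the 3 comparisons did a member and its partner pass in opposite directions. Members were chosen by level in the same samples and partners through them. Such counts were not made over all pairs of the table, so nothing is read from those given here.

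**Figure D3:**
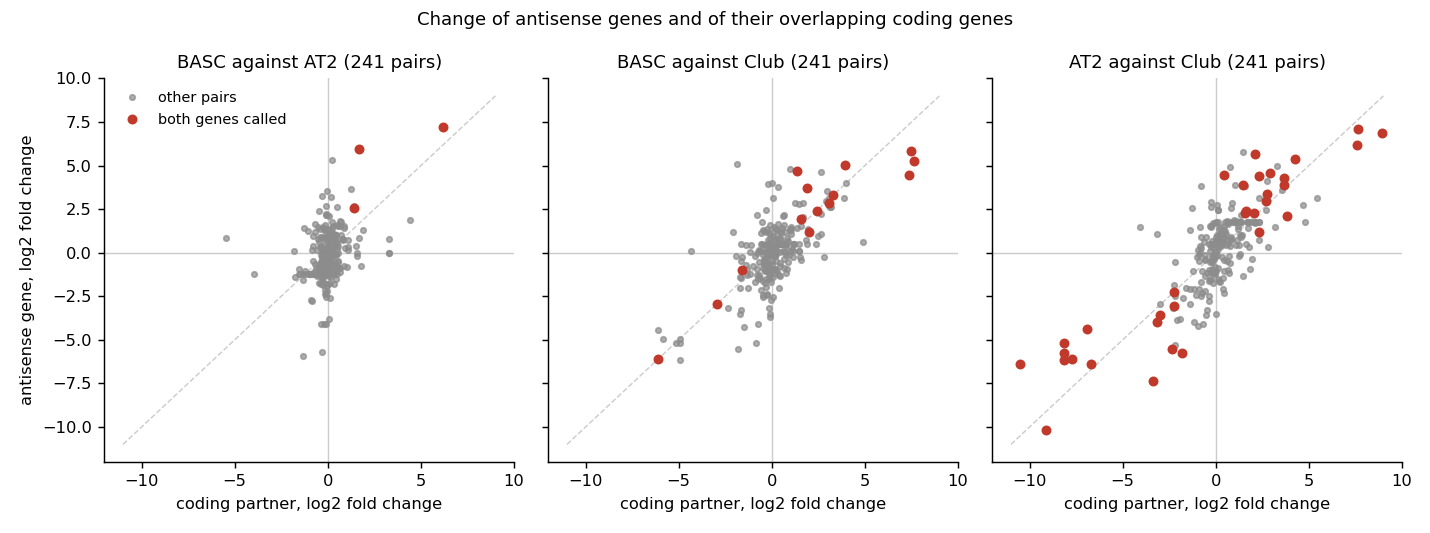
Log2 fold change of each antisense gene (vertical) against that of its coding partner (horizontal) in the 3 comparisons, 1 point per pair; red points are pairs in which both genes had an adjusted p under 0.05, and the dashed line marks equal change. The red points, 3, 14 and 33 from left to right, all lie in the quadrants of equal sign.

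The nearest coding gene without overlap was set beside each member as a local comparison. The median gap to it was 28.4 kb over all 221 members. Among 202 members with such a gene tested, the same sign was found in 52.0% (BASC against AT2 cells), 58.4% (BASC against Club cells) and 60.9% (AT2 against Club cells). Pearson's r was 0.11, 0.36 and 0.37 in that order. Antisense genes inside their partner shared its sign in 62.2%, 75.7% and 77.5% of 111 pairs without Gm29994. Tail to tail pairs did so in 67.4%, 74.4% and 83.7% of 43, and head to head pairs in 54.2%, 61.0% and 74.6% of 59. Pairs that share no exon base at all, again without Gm29994, did so in 67.6%, 78.9% and 77.5% of 71 and pairs that share exon bases in 58%, 65.3% and 77.3% of 150. The coding gene lay inside the antisense span in 8 pairs, with the same sign in 62.5%, 25% and 62.5%. No difference between these classes was tested. Unspliced reads of a partner could also fall in antisense exons within its introns if counting ignored strand, which was not tested.

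**Figure D4:**
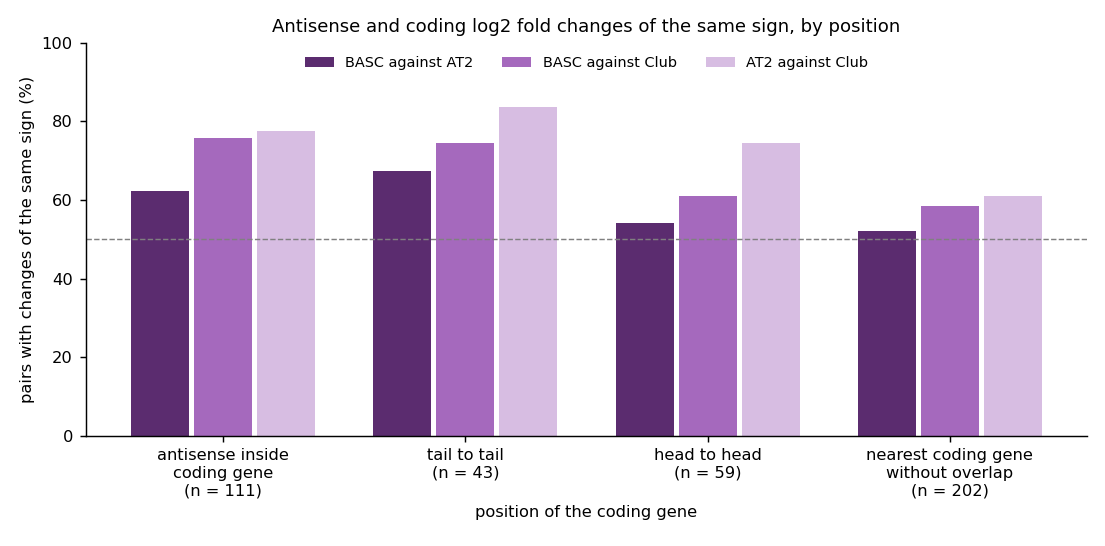
Share of pairs (%) in which the fitted log2 fold changes of the antisense and the coding gene had the same sign, passing or not, by position and comparison; pairs of Gm29994 and the 8 pairs with the coding gene inside are left out, n is the number of pairs, and the dashed line marks 50%. The share for overlapping pairs ran from 54.2% to 83.7%, and for the nearest coding gene without overlap from 52.0% to 60.9%.

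The ratio of antisense to coding values was tested directly in 806 pairs of the table, of which 241 belonged to members. In BASC against AT2 cells 0 of the 241 ratios passed in either direction (0% of all 806 higher and 0% lower), with 10 higher and 6 lower at an unadjusted p under 0.05. In BASC against Club cells 0 passed as well (0% and 0% of all pairs), with 10 and 12 at that unadjusted level. In AT2 against Club cells 1 passed, higher in AT2 cells (0.248% of all pairs higher, 0% lower), with 15 higher and 15 lower unadjusted. With 2 samples per group and low antisense values, a ratio that did not pass is not shown to be equal. Counts at the unadjusted level were not made over all 806 pairs, so nothing is read from those of members. The 1 ratio was that of 4732471J01Rik to Cxcl17, a chemokine gene of mucosal epithelia that lies inside the antisense span.

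4732471J01Rik had 25 and 105 normalised read counts in BASC, 111 and 165 in AT2 cells, and 64 and 35 in Club cells. Cxcl17 had 123 and 134 in BASC, 173 and 136 in AT2 cells, and 2768 and 2449 in Club cells. The log2 ratio was 5.57 ± 0.83 higher in AT2 than in Club cells (adjusted p = 0.0326), and in BASC against Club cells it was 4.45 ± 0.83 (adjusted p = 0.140). Per 1000 exon bases the antisense gene had 11.3% and 21.3% of the Cxcl17 level in AT2 cells against 0.406% and 0.251% in Club cells. Cxcl17 fell by 4.08 ± 0.24 (adjusted p = 5.41e-05) and the antisense gene did not pass (1.5 ± 0.81, adjusted p = 0.273), and both share no exon base. The ratio was not called without either AT2 sample or without BASC sample 2.

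Matching by symbol to a list of named antisense and opposite-strand RNAs gave 166 genes of the table. By biotype 129 of them were antisense_RNA and 9 protein-coding, among these Hras, which matched by the ending of its symbol. Of the 166 genes, 34 were members, all of them antisense_RNA. None passed in BASC against AT2 cells by limma, 3 were higher and 6 lower in BASC than in Club cells, and 3 were higher and 6 lower in AT2 than in Club cells. Among all genes tested the shares called were 0.553% higher and 0.079% lower, 5.77% and 5.42%, and 8.42% and 9.71% in these comparisons, and nothing is read from the counts, since the members were chosen by level in the same samples. The median log2 fold changes of the 34 were -0.13, 0.06 and 0.72 in that order, beside 0.00, -0.10 and -0.10 over all genes. Airn, the antisense of the imprinted Igf2r, had 36 and 67 in BASC, 15 and 48 in AT2 cells, and 101 and 71 in Club cells, while Igf2r stayed between 2599 and 3572, and neither passed. Tsix had 234 and 70 in BASC, 157 and 166 in AT2 cells, and 54 and 31 in Club cells and passed in no comparison. Hopxos, inside the homeodomain gene Hopx, had 1 and 18 in BASC, 8 and 0 in AT2 cells, and 139 and 101 in Club cells, and its difference between AT2 and Club cells did not pass (log2 -5.32, adjusted p = 0.0557). Junos, with no partner in the table, lay between 222 and 367 and Rab10os, beside the GTPase gene Rab10, between 209 and 314 in all 6 samples.

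Of the 14 members with no coding partner in the table, 0 passed in BASC against AT2 cells by limma. In BASC against Club cells 2 were higher and 0 lower, beside 5.77% and 5.42% of all genes, and in AT2 against Club cells 2 were higher and 0 lower, beside 8.42% and 9.71%. Gm17182 had 153 and 197 in BASC, 109 and 86 in AT2 cells, and 11 and 0 in Club cells and was higher than in Club cells in BASC (log2 5.66, adjusted p = 0.0261) and in AT2 cells (4.82, adjusted p = 0.0317). Gm26973 had 221 and 147 in BASC, 145 and 70 in AT2 cells, and 28 and 28 in Club cells and was 6.57-fold higher in BASC than in Club cells (adjusted p = 0.0314). Gm20628 had 95 and 67 in AT2 cells against 6 and 7 in Club cells (12.5-fold, adjusted p = 0.0429), with 51 and 18 in BASC. The groups called did not overlap for these genes.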

How the data were processed

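The deposited values are signal values that the authors made from read counts per gene by normalisation and rounding to whole numbers, as the values show. Reads were checked with FastQC, aligned with STAR 2.4.0a to mm10 (GRCm38) and counted with featureCounts 1.4.5-p1, per the submitters' processing notes. How the values were normalised, which strand setting was used and which annotation release was counted were not stated in the sources used here. The value of 1 read was estimated per sample from the spacing of low whole numbers. No gene with a maximum under 7 was in the table. Values were analysed as log2(value + 1) for the 17721 genes that reached 10 in 2 or more samples. All 6 samples were fitted together in limma 3.58.1 under R 4.3.3 with an intensity trend, and p-values were 2-sided and Benjamini-Hochberg adjusted over all genes, with calls at 0.05. Ratios were fitted likewise over 806 pairs with the log2 difference of antisense and coding values. Folds are ratios of group means, with 3 reads per library, averaged over the group, in place of a group at 0. Limits of this kind cover counting error only. The fit was tested on simulated data. Exon bases came from GENCODE M21, in which all 221 members were found and 189 had the same span. Genes named are the 12 highest members, up to 8 called per direction and comparison among members, partners and ratios, those nearest the level of 50, and members on the list of named antisense RNAs, with their partners. Members without partners that passed, antisense genes of named coding genes (9530026P05Rik, Gm13561, A630072L19Rik, AC126262.2) and Gm29994 were added after their values were seen. The members and lists were chosen with earlier results of these data known. Sequences are from RefSeq (GRCm38.p6).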

Additional observations from a re-analysis of the deposited data

How the results depend on the processing

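The number of antisense members was 507 at a level of 25 and 72 at a level of 100, against 221 at 50, and the number of pairs 519 and 71, against 247. Leaving out 1 sample at a time gave 0 to 2 called members in BASC against AT2 cells (3 with all samples), 5 to 20 in BASC against Club cells (29) and 17 to 39 in AT2 against Club cells (40), and 1 to 4 called partners in BASC against AT2 cells (4). A group left with 1 sample was assumed to vary like the others. Called ratios of BASC against Club cells were 4 with a pseudocount of 5 and 0 to 4 with 1 sample left out, against 0. Those of AT2 against Club cells were 2 with a pseudocount of 5, 0 with no filter on low values and 0 to 1 with 1 sample left out, against 1, and those of BASC against AT2 cells 0 to 1 against 0. The cause of these shifts was not tested. Samples with the same replicate number did not deviate together (r 0.006, 0.008 and 0.012 over 17721 genes). A replicate block gave 2, 22 and 36 called members, 4, 62 and 92 called partners and 0, 0 and 1 called ratios in BASC against AT2, BASC against Club and AT2 against Club cells. Of 128 called changes of named genes 128 stayed called after median-ratio rescaling, 124 with a pseudocount of 5, 117 with no filter and 118 with the block, and none changed sign. Leaving out 1 sample kept 91 and 93 of 128 without a BASC sample, 91 and 95 of 126 without an AT2 sample, and 77 and 82 of 113 without a Club sample. Groups had 2 samples each, and 44 members had a sample at 0.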
